A study of Mus musculus with 48 samples.

Results

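The subunits of Polycomb repressive complex 2 (PRC2) and the demethylase that removes its mark were followed across ex vivo sub-clones of the mouse mammary carcinoma line 4T1. The set held 10 genes, Ezh1, Ezh2, Eed, Suz12, Rbbp4, Rbbp7, Jarid2, Mtf2, Phf19 and Kdm6b, out of 18961 protein-coding genes with a probe set of a single gene symbol. Where a gene had more than 1 such probe set, the brightest over the 48 arrays was used, which applied to Rbbp4 and Kdm6b. All 10 genes lay above the intensity filter (a mean log2 intensity of 3.11, the 50th percentile of all probe sets), as did 11562 genes in all, and these were tested.

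PRC2 places methyl groups on lysine 27 of histone H3 (H3K27), and the trimethylated form marks silenced genes. Ezh2 and Ezh1 are alternative catalytic subunits, and Ezh2 is the one that dividing cells are known to express, whereas Ezh1 is kept in resting and differentiated cells. Eed and Suz12 are required for activity, Rbbp4 and Rbbp7 bind histones, Jarid2, Mtf2 and Phf19 are accessory subunits that help direct the complex to chromatin, and Kdm6b takes methyl groups off H3K27.

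RNA was measured on 48 arrays. Of these, 8 held the parental lines, which carry GFP and firefly luciferase (4T1-GFP/fL) or mCherry and Renilla luciferase (4T1-mCh/rL), with 4 arrays each. The other 40 held 13 sub-clones: 2 were cultured from the mammary fat pad (MFP, day 28), 4 from tumors grown in an axillary lymph node (AxLN, days 7 and 14), 4 from lungs of mice injected in that node (AxLN-LuM, days 14, 36 and 43) and 3 from lungs seeded through the tail vein (TV-LuM, days 14 and 38). The comparisons ask how expression differs between the primary site, the LN and the lung. The hosts were Balb/c mice, and the explanted cells were selected with thioguanine and grown in culture without treatment before RNA was taken, so the arrays show cultured cells and not tumor tissue. The GFP/fL line gave the MFP sub-clones, and mCh/rL gave those of AxLN and of AxLN-LuM, so site and reporter line cannot be told apart between MFP and the other 2 sites, and the labels name no reporter for TV-LuM. The labels call the arrays of a sub-clone biological replicates, and its mean was taken as 1 value in the tests. Some sub-clones share a tumor or metastasis number, and p-values measure only the spread between these sub-clones. The sub-clones called AxLN-LuM 1 at days 14, 36 and 43 share a number, but their labels name different source samples. Their days are thus not read as a time course of 1 metastasis.

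The titles marked 7 arrays as removed: all 3 of AxLN tumor 1 day 14, all 3 of AxLN-LuM 5 day 14 and 1 of MFP tumor 1. The first 2 sub-clones were left out of the tests between sites and are given by value. The third was taken as the mean of its other 3 arrays. AxLN-LuM 5 day 14 stood apart, with a mean of -1.38 over 24 cell cycle genes, where the other 12 sub-clones lay between -0.73 and 0.05 (log2 over the parental lines). All 5 carcinoma epithelium markers were above the filter (Epcam, Krt8, Krt18, Cdh1 and Cldn7), with a summed intensity of 6351 to 10456 in every line and sub-clone. The sum of 6 leukocyte markers was 34.7 to 57.7, of 3 endothelial markers 18.3 to 26.1, of 2 lung epithelium markers 8.2 to 10.04 and of 3 fibroblast markers 48.4 to 380.0. Ptprc, Pecam1, Cdh5, Dcn, Lum, Sftpc and Scgb1a1 were below the filter. Only Csf1r and Pdgfra of those 4 lists were above it. In such bulk samples, fewer cells that express a gene and less RNA per cell cannot be told apart.

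Ezh1 values lay above the average of the parental lines in all 13 sub-clones, although in AxLN-LuM 1 at days 14 and 43 (0.04) they did not exceed the mean of the mCh/rL line itself (0.10). Among the sites used they were highest in AxLN, but no site difference passed the test over all genes. All values are log2 intensities less the average of the parental arrays on the same plate, called the parental mean. Ezh1 was 0.37 in MFP tumor 1 and 0.36 in MFP tumor 2. In AxLN it was 0.80 in tumor 1 day 7, 1.01 in tumor 2 day 7 and 0.78 in tumor 2 day 14. In AxLN-LuM 1 it was 0.04 at day 14, 0.58 at day 36 and 0.04 at day 43. The 3 AxLN values all lay above those of the 5 MFP and AxLN-LuM sub-clones, a separation that 4.08% of all tested genes showed in this direction. In TV-LuM, Ezh1 was 0.32 in TV-LuM 1 day 14, 0.38 in TV-LuM 1 day 38 and 0.81 in TV-LuM 2 day 14, so TV-LuM overlapped with both MFP and AxLN. The sub-clones marked removed did not follow their sites: Ezh1 was 0.15 in AxLN tumor 1 day 14, below every other AxLN sub-clone, and 1.42 in AxLN-LuM 5 day 14, the highest of all 13.

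Cultures of a sub-clone differed little in Ezh1, with a pooled SD of 0.08, against an SD of 0.407 between the 13 sub-clones. Of 12 neighbouring pairs in the order of Ezh1 levels, 6 had arrays that overlapped. TV-LuM 2 day 14, AxLN tumor 1 day 7 and AxLN tumor 2 day 14 thus formed one overlapping run, and TV-LuM 1 day 38, both MFP sub-clones and TV-LuM 1 day 14 another. All arrays of a sub-clone lay above all parental arrays of its plate in 10 of 13 sub-clones. Of all tested genes 2.61% did so in at least 10, and 17.1% to 32.9% did so in a given sub-clone. Mtf2 lay above every parental array in 3 sub-clones (42.1% of genes did so in at least 3), and Mtf2 and Rbbp7 each lay below in 5 (25.0% in at least 5). The mean of Ezh1 was above the parental mean in 13 of 13 sub-clones, which 1.5% of genes shared, and no member was below it in all 13, as 1.1% of genes were.

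Ezh2 varied less than Ezh1, and its values were mostly below those of the parental lines. It was -0.29 in MFP tumor 1 and -0.22 in MFP tumor 2. In AxLN it was -0.21 in tumor 1 day 7, -0.42 in tumor 2 day 7 and -0.25 in tumor 2 day 14. In AxLN-LuM 1 it was -0.09 at day 14, -0.07 at day 36 and 0.12 at day 43. MFP and AxLN values overlapped, and the 3 AxLN-LuM values lay above both, a separation that 2.6% of genes showed in this direction. In TV-LuM, Ezh2 was 0.05 in TV-LuM 1 day 14, -0.03 in TV-LuM 1 day 38 and -0.26 in TV-LuM 2 day 14. It was -0.06 in AxLN tumor 1 day 14 and -0.58 in AxLN-LuM 5 day 14, which had the lowest Ezh2 and the highest Ezh1 of all sub-clones, so with the removed sub-clones the sites overlapped. Ezh2 lay below every parental array of the plate in 8 of 13 sub-clones (9.11% of genes did so in at least 8) and above in 1, AxLN-LuM 1 day 43. The pooled SD between cultures was 0.042 and the SD between sub-clones 0.193.

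**Figure D1:**
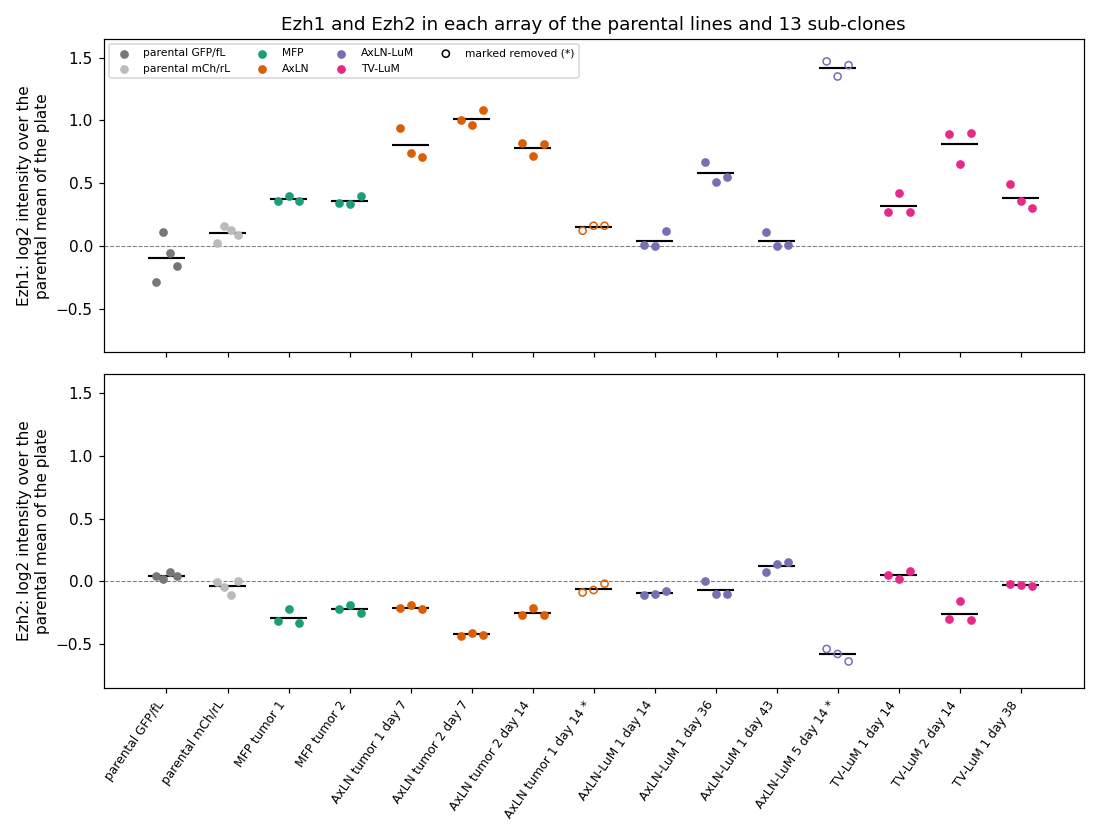
Ezh1 (top) and Ezh2 (bottom) in each array, as log2 intensity over the parental mean of the plate; points are arrays, bars are means, colours are groups, and open points mark sub-clones labelled as removed. Ezh1 lay between 0.78 and 1.01 in the 3 AxLN sub-clones that were used, and its highest and lowest sub-clones, 1.42 and 0.04, both came from AxLN-LuM.

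The AxLN difference, meaning the AxLN mean less the average of the MFP and AxLN-LuM means, was 0.57 for Ezh1 (SE 0.15, 95% interval 0.22 to 0.92, n = 8 sub-clones), a ratio of 1.49, and it did not pass over all genes (adjusted p = 0.308 by limma, unadjusted p = 0.00543). For Ezh2 it was -0.16 (SE 0.11, interval -0.41 to 0.09), a ratio of 0.90 (adjusted p = 0.597 by limma). Ezh1 was among the genes that the study picked on these arrays for this pattern, so its difference here is not independent evidence of a direction. The paper also reports higher Ezh1 in AxLN sub-clones by RT-qPCR, which was not examined here. For Ezh1 the AxLN difference came to 0.46 on plate 1 alone and 0.69 on plate 2 alone, and for Ezh2 to -0.03 and -0.26. With both removed sub-clones and the removed array included, it was 0.24 for Ezh1 and -0.03 for Ezh2.

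Taken as one quantity, Ezh1 minus Ezh2 gives the change in one catalytic subunit relative to the other since the parental lines. It was 0.66 and 0.58 in the MFP sub-clones. It was 1.01, 1.44 and 1.03 in AxLN tumor 1 day 7, tumor 2 day 7 and tumor 2 day 14. In AxLN-LuM 1 at days 14, 36 and 43 it was 0.14, 0.65 and -0.08. All 3 AxLN values lay above the other 5, and the AxLN difference was 0.73, a ratio of 1.66 (p = 0.0321, exact permutation test over 560 assignments of 8 sub-clones, two-sided). The difference was 0.50 within plate 1, with a single AxLN sub-clone, and 0.95 within plate 2, with 2. Against each sub-clone's own parental line it was 0.58 (p = 0.139, exact permutation test), and with the removed sub-clones 0.28 (p = 0.54, exact permutation test). Leaving out 1 sub-clone gave p = 0.0286 to 0.121 by the same exact test, and p was above the threshold without either MFP sub-clone or any of the 3 AxLN sub-clones. This test rests on the same Ezh1 values. In TV-LuM 1 day 14, TV-LuM 1 day 38 and TV-LuM 2 day 14 the values were 0.28, 0.42 and 1.07, and in the removed sub-clones 0.21 (AxLN tumor 1 day 14) and 2.01 (AxLN-LuM 5 day 14).

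The promoters of both catalytic subunits and of Phf19, the member with the lowest values in AxLN, are shown because the values below are set beside those of cell cycle genes, and the E2F factors that drive those genes bind promoters at known letters. Each runs 5′ to 3′ on the gene's strand, from 250 bases before to 50 after the start (RefSeq, GRCm38.p6). Capitals mark the E2F words searched on both strands, TTTCCCGC, TTTGGCGC, TTTCGCGC and TTTGCCGC. Ezh1 is at chr11:101226414-101226713 on the minus strand, Ezh2 at chr6:47594981-47595280 on the minus strand and Phf19 at chr2:34913927-34914226 on the minus strand.
Ezh1: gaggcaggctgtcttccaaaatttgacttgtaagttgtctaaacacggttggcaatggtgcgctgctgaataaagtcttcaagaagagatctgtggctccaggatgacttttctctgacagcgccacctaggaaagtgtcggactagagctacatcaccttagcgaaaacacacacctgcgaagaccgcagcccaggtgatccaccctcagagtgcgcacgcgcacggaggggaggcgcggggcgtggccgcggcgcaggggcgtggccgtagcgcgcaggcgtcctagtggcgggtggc
Ezh2: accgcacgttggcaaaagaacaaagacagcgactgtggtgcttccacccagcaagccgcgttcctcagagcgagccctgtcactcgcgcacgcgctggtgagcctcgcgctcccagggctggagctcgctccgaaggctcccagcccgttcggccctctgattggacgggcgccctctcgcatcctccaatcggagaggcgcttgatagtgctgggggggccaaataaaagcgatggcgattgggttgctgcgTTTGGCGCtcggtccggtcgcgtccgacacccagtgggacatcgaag
Phf19: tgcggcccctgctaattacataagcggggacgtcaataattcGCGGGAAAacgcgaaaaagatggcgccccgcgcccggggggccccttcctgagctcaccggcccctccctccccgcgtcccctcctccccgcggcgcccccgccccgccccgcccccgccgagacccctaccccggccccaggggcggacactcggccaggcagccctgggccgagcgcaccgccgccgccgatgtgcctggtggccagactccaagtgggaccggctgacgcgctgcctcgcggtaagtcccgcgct
Ezh2 held 1 such word, TTTGGCGC, which began 4 bases into the transcript, and Phf19 held 1. Ezh1 held none. An E2F word was in 2.32% of 27025 promoters of this length, and in 3.03% of 15358 for protein-coding genes on the array. It was in those of 3 of the 9 members with a promoter sequence (Ezh2, Phf19 and Suz12). CCAAT, the letters of the NF-Y box, occurred 3 times in Ezh2, did not overlap the E2F word and was absent from Ezh1 and Phf19, against 37.9% of all promoters that held it. A match is a run of letters and was not tested for binding.

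Of the core subunits, Eed, the subunit that reads the trimethyl mark, ranged from -0.26 in MFP tumor 1 to 0.29 in AxLN tumor 1 day 14, with a median of -0.12 over the 13 sub-clones. The AxLN sub-clones used, between -0.24 and -0.12, overlapped with MFP and AxLN-LuM. Suz12, which holds the core together, ranged from -0.33 in AxLN tumor 2 day 7 to 0.09 in AxLN tumor 1 day 14. Rbbp4, the histone chaperone, stayed between -0.19 and 0.13. The SD between sub-clones was 0.17 for Eed, 0.114 for Suz12 and 0.091 for Rbbp4, and 18%, 3.3% and 1% of all tested genes varied less. The AxLN difference was -0.06 for Eed (interval -0.33 to 0.22), -0.07 for Suz12 (-0.34 to 0.19) and -0.01 for Rbbp4 (-0.24 to 0.22).

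Rbbp7, the paralog of Rbbp4, had 1 sub-clone far from the rest. It was -0.77 ± 0.03 (SD, n = 3 arrays) in TV-LuM 1 day 38, a ratio of 0.59 to the parental lines, and between -0.15 and 0.31 in the other 12 sub-clones. Rbbp7 lies on chromosome X. Its 10 nearest tested neighbours there, taken after this value was seen, had a median of -0.64 in that sub-clone, and 8 of them lay below the range of the other 12 sub-clones. The 2 that did not were Sh3kbp1 (-1.09) and Grpr (-0.10). The median of all 310 other tested genes of the chromosome was -0.59 in TV-LuM 1 day 38, and 89.7% of them were below the parental mean. In the other 12 sub-clones that median lay between -0.07 and 0.14. The 11251 tested genes off the chromosome had a median of -0.03 in TV-LuM 1 day 38. Kdm6a, an X-linked demethylase of H3K27 outside the set, was -0.79 there and between -0.35 and 0.31 elsewhere. No measurement of DNA was analysed here. Apart from that sub-clone, Rbbp7 was -0.11, -0.10 and -0.09 in the AxLN sub-clones used, below the 5 values of MFP and AxLN-LuM (-0.06 to 0.21), as were 5.86% of genes, and the difference was -0.15 (SE 0.10, adjusted p = 0.598 by limma). With the removed sub-clones AxLN tumor 1 day 14 (0.07) and AxLN-LuM 5 day 14 (-0.15) the sites overlapped.

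**Figure D2:**
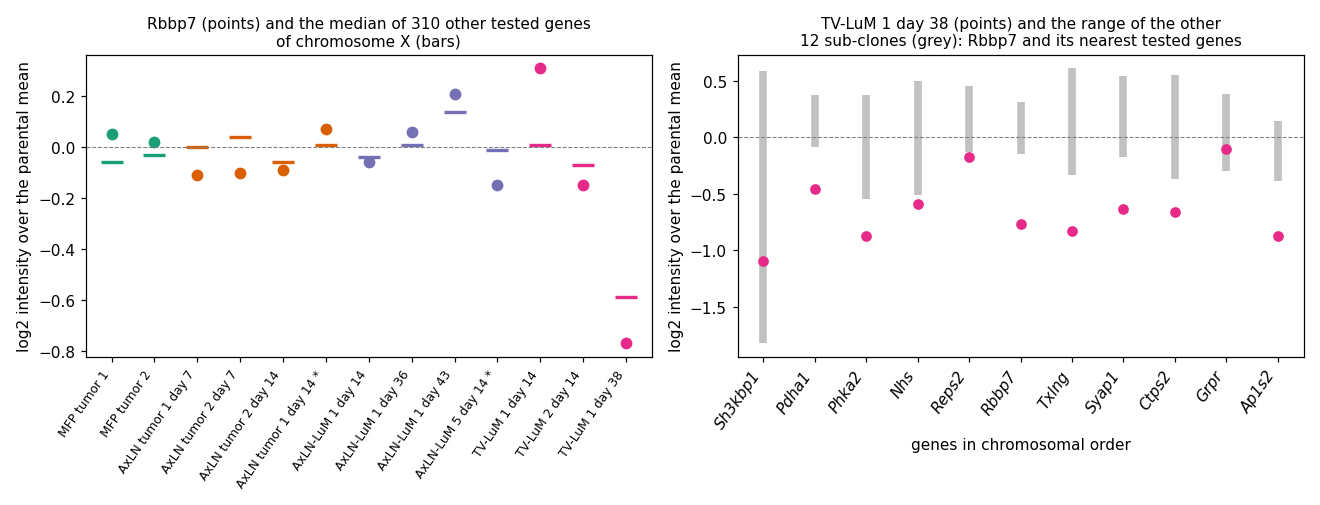
Left, Rbbp7 (points) and the median of 310 other tested genes of chromosome X (bars) in each sub-clone, as log2 over the parental mean; right, Rbbp7 and its 10 nearest tested genes in TV-LuM 1 day 38 (points) and the range of the other 12 sub-clones (grey). Rbbp7 at -0.77 and the chromosome's median at -0.59 both stood below all other sub-clones.

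Among the accessory subunits, Phf19, a reader of methylated H3K36, varied most of all members (SD 0.486 between sub-clones, 0.095 between cultures). In MFP it was 0.52 in tumor 1 and -0.38 in tumor 2. In AxLN it was -0.71, -1.10 and -0.49 in tumor 1 day 7, tumor 2 day 7 and tumor 2 day 14. In AxLN-LuM 1 it was 0.23 at day 14, -0.14 at day 36 and -0.65 at day 43. AxLN was thus low throughout but overlapped with AxLN-LuM at day 43. TV-LuM lay between -0.62 and -0.45, AxLN tumor 1 day 14 was -0.19, and AxLN-LuM 5 day 14 was -1.27, the lowest of all. Phf19 lay below every parental array of the plate in 9 of 13 sub-clones, as 5.28% of genes did in at least 9. The AxLN difference was -0.71 (SE 0.27, interval -1.34 to -0.08), a ratio of 0.61 (adjusted p = 0.395 by limma, unadjusted p = 0.0308). It was -0.77 within plate 1, -0.73 within plate 2 and -0.44 with the removed sub-clones. Without MFP tumor 1 alone it was -0.49.

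Jarid2, which recruits the complex in stem cells, was -0.32 and -0.18 in MFP, -0.12, -0.29 and -0.39 in AxLN, and 0.33, -0.10 and 0.03 in AxLN-LuM 1 at days 14, 36 and 43. Each AxLN-LuM value lay above each MFP and AxLN value, as for 2.6% of genes, but by as little as -0.10 against -0.12. With AxLN tumor 1 day 14 (-0.02) and AxLN-LuM 5 day 14 (-0.08) the groups overlapped. AxLN-LuM minus AxLN was 0.36 (SE 0.15, unadjusted p = 0.0432, adjusted p = 0.404 by limma), and 0.23 without AxLN-LuM 1 day 14. Its highest value was 0.48, in TV-LuM 1 day 38. Mtf2, a reader of methylated H3K36 that also binds CpG-rich DNA, ranged from -0.36 in TV-LuM 2 day 14 to 0.28 in AxLN-LuM 1 day 43. AxLN values of Mtf2 lay between -0.08 and 0.01, within the range of AxLN-LuM (-0.23 to 0.28).

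Kdm6b, which opposes PRC2, was the third most variable member (SD 0.398, behind Phf19 and Ezh1). It was 0.07 and -0.25 in MFP and -0.43, 0.25 and -0.13 in AxLN. In AxLN-LuM 1 it was 0.64 at day 14, -0.16 at day 36 and -0.04 at day 43. Sites overlapped. It was 1.01 ± 0.11 (SD, n = 3 arrays) in AxLN-LuM 5 day 14, the highest of all sub-clones, and between -0.26 and 0.07 in TV-LuM.

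**Figure D3:**
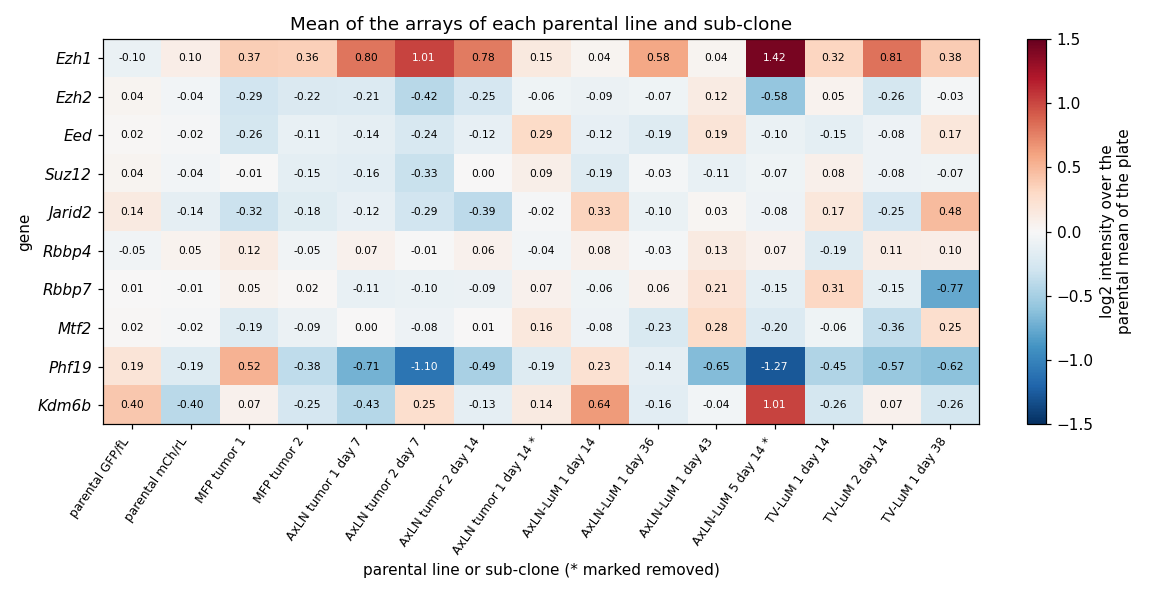
Mean log2 intensity over the parental mean for each of the 10 genes (rows) in both parental lines and the 13 sub-clones (columns, * marks removed sub-clones). Phf19, Ezh1 and Kdm6b had the largest SDs between sub-clones (0.486, 0.407 and 0.398), and Rbbp4 stayed between -0.19 and 0.13.

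None of the 10 genes passed between sites. By limma on 8 sub-clones, 0 of 10 were called for AxLN minus MFP, for AxLN-LuM minus AxLN or for AxLN-LuM minus MFP, and 0.0% of all genes were called in each, as for the AxLN difference. At an unadjusted p under 0.05 there were 2 of 10 for the AxLN difference (Ezh1 and Phf19, against 11.1% of genes), 2 for AxLN minus MFP (Ezh1 at 0.50 and Phf19 at -0.84, against 6.95% of genes, with Phf19 at -0.39 without MFP tumor 1 and -1.29 without MFP tumor 2), 3 for AxLN-LuM minus AxLN (Ezh1 at -0.65, Ezh2 at 0.28 and Jarid2 at 0.36, against 11.9%) and 0 for AxLN-LuM minus MFP (4.01%). These comparisons share sub-clones. With each sub-clone set against its own parental line, AxLN minus MFP was 0.30 for Ezh1 and -0.45 for Phf19. Against the parental lines, limma on 11 sub-clones and 2 lines called 0 of 10 for any site, and 0.0% of genes. Ezh1 minus the parental lines was 0.86 in AxLN (SE 0.19, unadjusted p = 9.75e-04, adjusted p = 0.124 by limma), 0.37 in MFP, 0.22 in AxLN-LuM and 0.51 in TV-LuM (unadjusted p = 0.0244). In AxLN, Ezh2 (-0.29) and Phf19 (-0.77) also had an unadjusted p under 0.05, as did 15.6% of genes. The only other member with such a p was Ezh1 in TV-LuM (9.26% of genes), and there was none in MFP (5.48%) or AxLN-LuM (1.72%). No member was called for TV-LuM minus MFP, AxLN or AxLN-LuM (0.0% of genes), and 0 had an unadjusted p under 0.05, against 10.3%, 13.3% and 12% of genes. Ezh1 was 0.36 lower in TV-LuM than in AxLN (TV-LuM minus AxLN, interval -0.74 to 0.03).

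The parental lines differed from each other in 2 of the 10 genes. Kdm6b was 7.31, 7.26, 7.46 and 7.26 in the 4 GFP/fL arrays (log2 intensity) and 6.47, 6.59, 6.45 and 6.60 in the 4 mCh/rL arrays, with no overlap. mCh/rL minus GFP/fL was -0.80 (SE 0.07), a ratio of 0.58 (adjusted p = 9.69e-04 by limma with plate as a covariate). Phf19 was 8.05, 8.14, 8.31 and 8.19 in GFP/fL and 7.67, 7.73, 7.91 and 7.82 in mCh/rL, again without overlap. Its difference was -0.39 (SE 0.05), a ratio of 0.76 (adjusted p = 0.00541 by limma). Both were called lower in mCh/rL, as 6.63% of all tested genes were, 12.8% were called in either direction, and 30.0% had an unadjusted p under 0.05. Among the rest, Jarid2 (-0.27, adjusted p = 0.146 by limma) and Ezh1 (0.20, adjusted p = 0.181 by limma) had the largest differences. Arrays of a line are replicates of that line alone, so these p-values measure the spread between its cultures. With each sub-clone set against its own parental line, the AxLN difference of Phf19 was -0.52, in place of -0.71, and that of Ezh1 was 0.47, in place of 0.57.

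**Figure D4:**
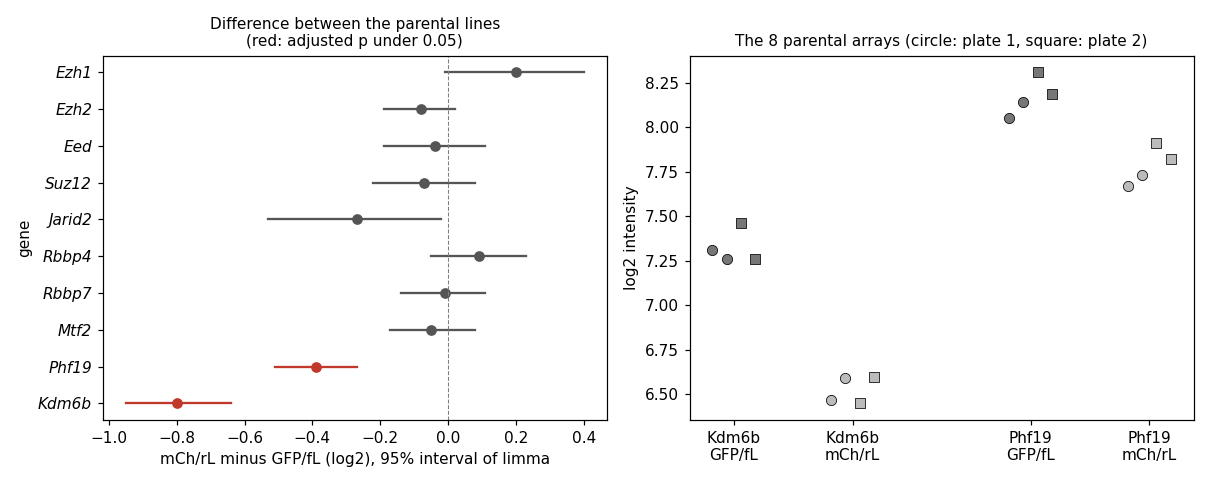
Left, mCh/rL minus GFP/fL for each of the 10 genes with the 95% interval of limma (red, adjusted p under 0.05); right, log2 intensity of Kdm6b and Phf19 in the 8 parental arrays. Kdm6b at -0.80 and Phf19 at -0.39 were called, and the arrays of the lines did not overlap.

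Across the 13 sub-clones Ezh1 and Ezh2 ran in opposite directions (r = -0.85, rho = -0.75, permutation p = 2.9e-04, adjusted p = 3.87e-04 over 4 relations). The relation held in plate 2 (r = -0.93, exact p = 0.00456, n = 7) but not in plate 1 (r = -0.29, exact p = 0.533, n = 7), with 1 MFP sub-clone spread over both plates. Without the sub-clones farthest from the median of Ezh1, AxLN tumor 2 day 7 and AxLN-LuM 5 day 14, r was -0.64 (permutation p = 0.0377), and without those marked removed it was -0.74. Ezh1 was lower where the mean of 24 cell cycle genes was higher (r = -0.93, rho = -0.91, permutation p = 1e-05, the smallest these permutations can give, adjusted p = 4e-05). Within plate 1 r was -0.90 (exact p = 0.00476), although rho was -0.64 (exact p = 0.139). The relation also held within plate 2 (r = -0.92, exact p = 9.92e-04) and without the farthest sub-clones (r = -0.90, permutation p = 3.3e-04). The study picked Ezh1 and cell cycle genes such as Rrm2 on these arrays for a change in AxLN. The p-values of Ezh1 with the cell cycle mean are thus not independent evidence of a relation.

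Ezh2 ran with the cell cycle genes by Pearson's r (0.81, permutation p = 8.5e-04, adjusted p = 8.5e-04), whereas rho was 0.52 (permutation p = 0.0707). Within plate 1 r was 0.14 (exact p = 0.756) and within plate 2 0.81 (exact p = 0.0234), and without AxLN-LuM 1 day 43 and AxLN-LuM 5 day 14 it was 0.64 (permutation p = 0.0344). Ezh1 and Hdac11, the deacetylase that the study picked on these arrays together with Ezh1, ran together (r = 0.90, adjusted p = 2.2e-04 by permutation, rho = 0.85). Within each plate r was 0.89, with rho of 0.71 on plate 1 (exact p = 0.0881) and 0.82 on plate 2 (exact p = 0.0341). Since both were picked for a change in AxLN, these p-values are not independent evidence of a relation. The cell cycle mean was -0.42, -0.73 and -0.32 in the AxLN sub-clones used and between -0.15 and 0.05 in those of MFP and AxLN-LuM. Its part in the Ezh1 and Ezh2 differences between sites was not tested. The paper reports a growth assay in which AxLN sub-clones divided faster than those of the other sites. How this RNA mean relates to the rate of division was not tested. The permutations treat sub-clones as exchangeable, although some share a tumor number and all share the parental baseline of their plate. Hdac11 itself stood at rank 40 among the genes most like Ezh1.

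**Figure D5:**
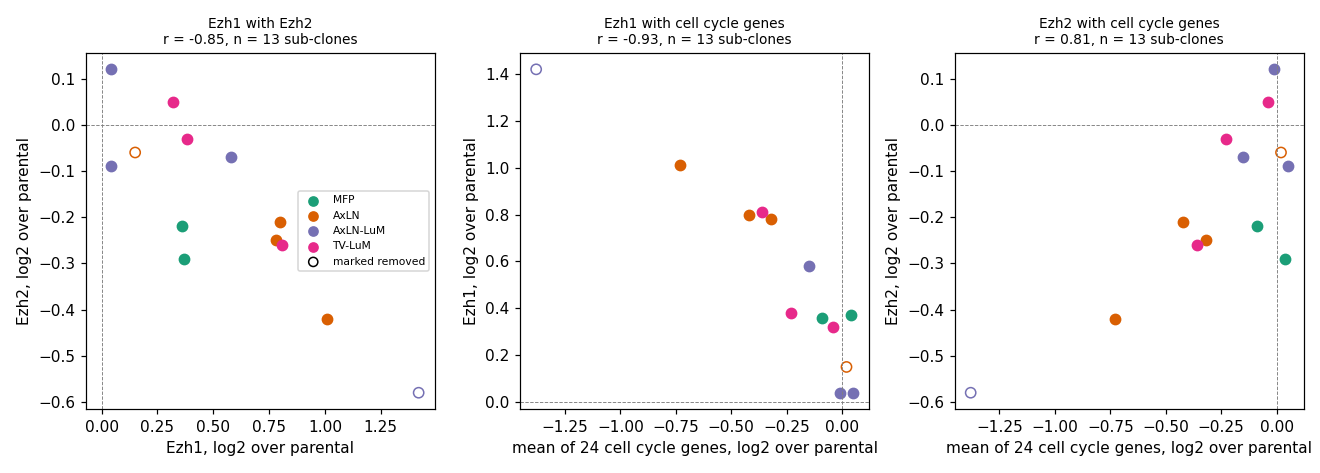
Each point is a sub-clone (colour, site; open, marked removed), on log2 scales over the parental mean: Ezh1 against Ezh2, and Ezh1 and Ezh2 against the mean of 24 cell cycle genes. Ezh1 ran against the cell cycle mean (r = -0.93), and AxLN-LuM 5 day 14, at a mean of -1.38, lay at the end of all 3 panels.

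Among the members themselves, given as a description over the same 13 sub-clones, Eed and Mtf2 ran together (r = 0.75). Phf19 ran against Ezh1 (r = -0.68, and -0.53 without the removed sub-clones) and with the cell cycle mean (r = 0.79). Ezh2 and Phf19, which both carry an E2F word, had r = 0.39, and 0.08 without the removed sub-clones. Suz12, the third member with such a word, had r = 0.35 with Ezh2, 0.34 with Phf19 and 0.30 with the cell cycle mean. These were 0.46, 0.40 and 0.55 without the removed sub-clones. Kdm6b went against the cell cycle mean (r = -0.55) only with them, since r was 0.08 without them. The tested genes most like Ezh1 were Lmbrd1, Klc4 and Smim19, each with r = 0.96, and those most like Ezh2 were Rabep2 (0.93), Mvk (0.93) and Zfp322a (0.91). In the order of likeness to Ezh2, Ezh1 came at rank 11520 among the 11562 genes tested.

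Of 24 tested cell cycle genes, 24 had a negative AxLN difference (median -0.44, against -0.02 over all genes), 18 at an unadjusted p under 0.05 (11.1% of all genes) and 0 after adjustment. Rrm2 (-1.05, SE 0.25), the small subunit of ribonucleotide reductase, Cdc6 (-1.01, SE 0.21), a replication licensing factor, and Ccne1 (-0.69, SE 0.27), cyclin E, had the largest differences. Of 11 E2F and Rb family genes, 8 had a negative and 3 a positive AxLN difference (median -0.29, 6 at an unadjusted p under 0.05), led by E2f8 (-1.10, SE 0.27), E2f2 (-0.71, SE 0.21) and E2f7 (-0.58, SE 0.14). The study had picked Rrm2 and E2f8 on these arrays, and the paper also reports RT-qPCR of both and a rise of both after Hdac11 knockdown.

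The other Polycomb genes were mixed. Of 17 tested PRC1 genes, whose complex ubiquitylates histone H2A, 8 had a positive and 9 a negative AxLN difference (median -0.02), with Cbx7, a chromobox reader of the PRC2 mark, at 0.51 (SE 0.15) and Pcgf1 at 0.47 (SE 0.15). Of 5 further PRC2 subunits and inhibitors, 4 had a negative one, among them Epop at -0.36 (SE 0.18), and Phf1 was at 0.14. Of 16 partners of Rbbp4 and Rbbp7 in other complexes, 12 had a negative one (median -0.14), led by Chaf1a (-0.46, SE 0.16), the large subunit of the replication-coupled chromatin assembly factor, and Mbd3 (-0.40, SE 0.16). Of 6 other enzymes of H3K27 and H2A, 4 had a negative one (Asxl1 at -0.24), and of 8 trithorax genes and H3K36 methyltransferases 5 did, with Kmt2b at -0.20. Of 20 textbook PRC2 targets such as Hox genes, 11 were above the filter, and of these 5 had a positive and 6 a negative one (median -0.11), with Hoxa10 at -0.26 (SE 0.16). No gene of these lists was called by limma in any comparison of sites.

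Between the parental lines, where arrays were the replicates, several chromatin enzymes were called. These calls thus cannot be set beside the absence of calls between sites, where sub-clones were the replicates. Of 8 trithorax and H3K36 methyltransferases, 6 were lower in mCh/rL: the H3K4 methyltransferases Kmt2a (-0.32), Kmt2b (-0.35), Kmt2c (-0.43) and Kmt2d (-0.48), and the H3K36 methyltransferases Nsd3 (-0.22) and Setd2 (-0.39). Of 6 enzymes of H3K27 and H2A, 3 were lower: the acetyltransferases Crebbp (-0.30) and Ep300 (-0.36), and Asxl1 (-0.39), a cofactor of the H2A deubiquitinase. Lcor (-0.44) was also lower, as were E2f7 (-0.32), E2f8 (-0.34), Cenpf (-0.25), Mcm4 (-0.18), Mki67 (-0.17) and Gatad2b (-0.20). Cbx8 (0.31), Hoxa5 (0.34), Hat1 (0.24), Sap30 (0.25) and Ccnb2 (0.17) were higher in mCh/rL. These calls are by limma over all 11562 genes, against 12.8% of all genes called.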

How the data were processed

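The authors hybridized RNA of 8 parental and 40 sub-clone cultures to 2 plates of Affymetrix arrays and summarized each plate with RMA in Affymetrix Expression Console. The deposited table gives linear-scale intensities (1.11 to 10561.01) of 41345 probe sets, 23521 with a single gene symbol, of which the log2 was taken. Columns 1 to 24 were taken as plate 1 and the rest as plate 2, a split that the values of all 48 arrays and the 6 labels naming a plate all met. The average of the parental arrays of a plate was subtracted from each of its arrays, both lines weighing equally, and arrays of a sub-clone were averaged.

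Differences were tested with limma 3.58.1 (lmFit and eBayes, R 4.3.3) over 11562 genes with Benjamini-Hochberg adjustment, at a threshold of 0.05. The script was tested on simulated data. Exact and permutation tests (100000 resamples) used numpy 2.4.6, pandas 2.3.3 and scipy 1.17.1 in Python 3.11.15, and matplotlib 3.10.9 drew the figures. The number of sub-clones limits the precision. Named genes are all 10 members and, from each further list, genes called or, failing that, up to 3 with the largest AxLN difference. The members and lists were chosen with earlier results of these data known. Alternatives were other baselines, quantile normalization, no filter, plate as a covariate, blocks and leaving out sub-clones. Kdm6b had no promoter sequence in the table used.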

Additional observations from a re-analysis of the deposited data

Results flagged for a closer look

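Of 50 groups of 4 values examined for a single distant value, 2 had one, and chance flags about 1 in 20 groups. Rbbp7 was 0.07 in AxLN tumor 1 day 14, far above the other AxLN sub-clones (-0.11 to -0.09). In 1 parental GFP/fL array of plate 2 Rbbp7 was 0.11, where the other 3 arrays of that line lay between -0.04 and -0.02.

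The sub-clones marked removed, which entered no test between sites, held values beyond the parental arrays. In AxLN-LuM 5 day 14 every array exceeded every parental array of its plate for Ezh1 (mean 1.42, parental arrays -0.16 to 0.13) and Kdm6b (mean 1.01, parental arrays -0.50 to 0.52). In AxLN tumor 1 day 14 the same held for Eed (mean 0.29, parental arrays -0.10 to 0.06) and Mtf2 (mean 0.16, parental arrays -0.09 to 0.11). Of all tested genes, 32.9% lay above every parental array in the first of these sub-clones and 17.1% in the second. Ezh2, Rbbp7, Mtf2 and Phf19 lay below every parental array in AxLN-LuM 5 day 14, as did 24.4% of genes, and no member did in AxLN tumor 1 day 14 (13.8% of genes). The 2 of 10 members above in AxLN-LuM 5 day 14 were a smaller share than that of all genes.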

How the results depend on the processing

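With arrays as replicates, the AxLN difference of Ezh1 (0.57) passed with a random block for sub-clones (0.573, adjusted p = 0.00692 by limma) and with the replicate block (0.575, adjusted p = 4.84e-05 by limma). That of Phf19 (-0.71) passed with the random block (adjusted p = 0.0307 by limma) and the replicate block (-0.70, adjusted p = 0.00308). Those of Ezh2 (-0.16, adjusted p = 0.0235 by limma) and Rbbp7 (-0.15, adjusted p = 0.0211) passed with the replicate block. The count of members called between pairs of sites rose from 0 to 1 with the random block (Ezh1) and to 5 with the replicate block (Ezh1, Ezh2, Jarid2, Phf19 and Rbbp7). Each was called for AxLN-LuM minus AxLN, where these fits called 4.6% and 27.3% of all genes. The replicate block also called Ezh1 and Phf19 for AxLN minus MFP (15.9% of genes) and Ezh2 for AxLN-LuM minus MFP (6.8%). The random block takes 1 correlation for all genes, and the replicate block counts cultures of a sub-clone as independent. Replicate numbers did not pair the arrays: deviations of same-numbered arrays correlated at 0.00 to 0.07. Ezh1 minus Ezh2 (0.73) no longer passed its exact test against each sub-clone's own parental line (0.584) or with all mapped sub-clones (0.277). Leaving out 1 sub-clone gave 0.593 to 0.836 for it, 0.498 to 0.662 for Ezh1 and -0.203 to -0.095 for Ezh2, the last without AxLN tumor 2 day 7. The cause of these changes was not tested. The AxLN differences of Ezh1, Ezh2, Phf19 and Ezh1 minus Ezh2 kept their sign under every alternative run for them. Small differences of other members did not all do so. With the removed sub-clones, mean Eed was -0.05 in AxLN, -0.18 in MFP and -0.05 in AxLN-LuM, so its difference (-0.06) turned positive. Within plates, the AxLN difference of Kdm6b (-0.13) was -0.49 and 0.04, and rho of Ezh2 with the cell cycle genes (0.52) was -0.14 on plate 1. The calls of Kdm6b and Phf19 between the parental lines and the counts of 0 against the parental lines and for TV-LuM were kept under the alternatives run for them, and the 4 relations kept their side of the threshold by Pearson's r under the 4 alternatives run over both plates, but within plate 1 those of Ezh2 did not pass.

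Between sites, limma called 0 of 11562 genes for the AxLN difference, against 2945 with the replicate block, 491 with the random block and 96 with plate as a covariate. Between the parental lines, with arrays as replicates, limma called 1485, against 501 of 18961 without the intensity filter. The low signal of 8 of 19 measured textbook PRC2 targets left them untested.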
